A study of Mus musculus with 18 samples.

Results

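Crypt gene expression was compared between mice labelled Ern2-/- that had carried gut microbes since birth and mice of the same label that had received microbes 14 days earlier. The comparison took in every library with either pair of labels, 3 CONV-Ern2-/- and 3 COLONIZED-Ern2-/- libraries out of the 18 of the series. Each library was made from colon crypt epithelial cells of C57BL/6 mice, which the study released with EDTA and passed through strainers, and RNA-Seq reads were counted per gene. CONV mice were raised conventionally under SPF (specific pathogen-free) conditions. A supplemental figure legend with histology and RNA-Seq panels describes the CONV mice of its stained sections as separately housed. Whether this holds for the animals sequenced here is not stated there. COLONIZED mice were rederived germ free, were gavaged once with cecal contents of a WT SPF donor, and were then held in sterile cages outside the isolator until the colon was taken. The deletion label, the strain and the tissue were shared by both groups, and the labels gave no ages. The length of exposure to microbes, the way they were acquired and the housing differed together between the groups. The source and make-up of the microbes may have differed too. The paper reports the stool community of CONV-Ern2-/- mice as less diverse than that of CONV-WT mice and different in taxa. Whether the animals sequenced here were among those sampled is not stated. These differences between the groups cannot be told apart.

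Ern2 encodes ERN2 (IRE1β), a sensor of ER stress found in mucosal epithelium, where it splices Xbp1 mRNA and is most abundant in goblet cells. Goblet cells make MUC2, a very large glycoprotein that loads the ER and the Golgi heavily and forms the mucus layer of the colon. The colon crypt is renewed from dividing cells at its base, and the absorptive colonocytes that result climb to the surface, where they take up water, salt and short-chain fatty acids.

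Total counts were 20231830, 16008880 and 14046576 in COLONIZED-Ern2-/- replicates 1, 2 and 3 and 15419844, 7084267 and 5865619 in CONV-Ern2-/- replicates 1, 2 and 3. The 2 smallest libraries of the series were thus both CONV-Ern2-/-. The ribosomal precursor Rn45s took 0.333% to 0.479% of counts in COLONIZED-Ern2-/- and 1.55% to 2.32% in CONV-Ern2-/-, with no overlap. The COLONIZED-Ern2-/- shares were the lowest of the series. The GF-Ern2-/- libraries ran from 0.554% to 0.844% and the WT libraries from 1.21% to 3.57%. The nuclear RNA Malat1 took 0.0505% to 0.143% in COLONIZED-Ern2-/-, 0.0789%, 0.7% and 0.537% in CONV-Ern2-/- replicates 1, 2 and 3, and 0.691% in CONV-WT replicate 3. The part of depth and RNA composition in the results was not tested beyond the fits named here. Y-linked genes were counted in 3 of 3 CONV-Ern2-/- and 2 of 3 COLONIZED-Ern2-/- libraries. Summed levels of 8 epithelial markers ran from 12700 to 14200 CPM (counts scaled by the library total) in COLONIZED-Ern2-/- and from 13200 to 14100 in CONV-Ern2-/-, against 57.5 to 88.8 and 50.5 to 60.7 for 27 immune markers. Mesenchymal markers were low but higher in every CONV-Ern2-/- library, at 175 to 210 CPM against 111 to 154. In the first principal components (56.3% and 19.5% of variance), the first separated the groups, and the CONV-Ern2-/- libraries were spread along the next, at -40.66, 33.03 and 1.69. Within each group the first component also rose as the total count fell. It was at -46, -36.92 and -24.5 in COLONIZED replicates 1, 2 and 3 and at 19.92, 32.9 and 54.59 in CONV. Across the groups that order did not hold, as CONV replicate 1 had more counts than COLONIZED replicate 3.

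**Figure D1:**
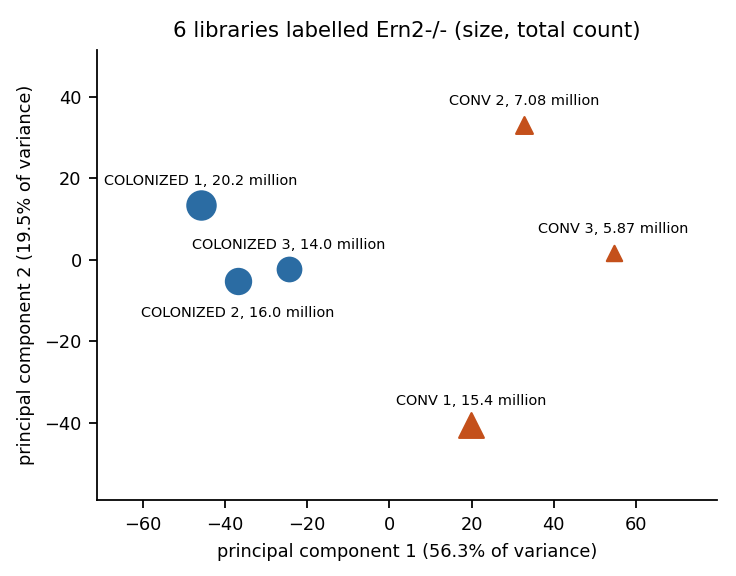
First and second principal components of log2(normalised count + 1), over genes with a mean of at least 10 counts, in the 6 libraries labelled Ern2-/-, with the percentage of variance on each axis and 1 symbol per library, sized by its total count. COLONIZED libraries lie between -46 and -24.5 on the first component and CONV libraries between 19.92 and 54.59, while CONV replicates 1, 2 and 3 lie at -40.66, 33.03 and 1.69 on the second.

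The targeted gene was examined first. Normalised Ern2 counts (chr7:122169893-122186207, mm10, minus strand) were 2030, 1040 and 1479 in COLONIZED-Ern2-/- replicates 1, 2 and 3 and 790, 1275 and 1176 in CONV-Ern2-/-. The groups overlapped, and the log2 fold change, CONV minus COLONIZED throughout, was -0.49 (SE 0.28, DESeq2 adjusted p 0.232). Ern2 was therefore counted in every library labelled Ern2-/-. A count per gene does not show whether the deleted part was among the reads, so the count does not check the label, and every direction given here refers to libraries labelled Ern2-/-. Ern1, which encodes the ubiquitous sensor IRE1α, was not called either (554, 414 and 389 in COLONIZED against 503, 246 and 166 in CONV, -0.55, SE 0.36, adjusted p 0.305).

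To ask whether crypt expression differed between the CONV and COLONIZED groups under this label, the 6 libraries were fitted together. A gene was called when its DESeq2 Wald test had a Benjamini-Hochberg adjusted p below 0.01. Of 13340 genes tested, 1116 were called (8.37%), of which 633 were higher (4.75%) and 483 lower (3.62%) in CONV-Ern2-/-. More than 2-fold changes made up 309 of the higher and 296 of the lower calls. The groups did not overlap in 1102 of the called genes, and in 4740 of all genes tested (35.5%). The count depended on single libraries, from 417 without COLONIZED replicate 1, 501 without CONV replicate 3, 591 and 640 without COLONIZED replicates 2 and 3, to 2502 without CONV replicate 1. In all, 334 genes (2.5%) were called in the fit of 6 and again in every one of the 6 fits without 1 library, 223 of them higher (1.67%) and 111 lower (0.832%). edgeR's quasi-likelihood test called 35 genes, all of them higher and all also called by DESeq2, and 0 lower, with 3895 at an unadjusted p below 0.05 against 4017 in DESeq2. Adjusted for the library total, DESeq2 called 261 genes (217 higher and 44 lower), of which 214 were among the 1116. Calls lost in that fit included Agr2, Kcnma1, Hsd11b2, Nov, Chac1, Scd2, Gcg, Bub1 and Irf7, with adjusted p from 0.0137 (Gcg) to 0.116 (Irf7). In a fit of all 18 libraries it called 430, with 170 higher and 260 lower. At an adjusted p below 0.05, a threshold added after the data were seen, the counts were 1132 in edgeR and 2185 in DESeq2. The labels number the replicates without naming the animals behind them, so p-values measure the spread between these libraries.

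Genes of surface colonocytes were called in 1 direction, higher in CONV-Ern2-/-. Of 37 tested, 16 rose, 0 fell and 21 were not called (43.2% called against 8.37% of all genes). The median log2 fold change was 0.92 against -0.0056 over all genes tested. At an unadjusted p below 0.05, 28 were higher and 1 lower. Their summed level was 26500, 32400 and 33100 CPM in COLONIZED replicates 1, 2 and 3 and 60400, 45300 and 51300 CPM in CONV. In bulk RNA, more cells of a type and more RNA per cell cannot be told apart. edgeR called 5 of them, and the number called ran from 12 to 19 when 1 library was left out.

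The largest rise in this list was that of Aqp8, a water channel of the colonocyte surface (chr7:123462291-123468004, plus strand). Its normalised counts were 65.9, 103 and 165 in COLONIZED replicates 1, 2 and 3 and 4167, 2523 and 2281 in CONV. The lowest CONV library was thus far above the highest COLONIZED library, and the level was 26.9-fold higher (log2 fold change 4.75, SE 0.34, DESeq2 adjusted p 1.41e-40, edgeR 0.00266). Clca6, of a family of secreted regulators of chloride conductance, had 244, 276 and 338 counts in COLONIZED and 3893, 2928 and 2639 in CONV, an 11.0-fold rise (3.47, SE 0.22, adjusted p 5.33e-52). Slc26a3 (chr12:31390871-31473917), the exchanger that takes up chloride for bicarbonate, had 1592, 2819 and 3278 against 15052, 8116 and 8530 counts (2.04, SE 0.32, adjusted p 2.21e-08). Within CONV, replicate 1 was the highest library for each of these 3 genes. Krt20, the keratin of differentiated surface cells, did not share that order, with 13886, 16323 and 17477 counts in CONV against 5203, 6274 and 4950 in COLONIZED (1.54, SE 0.18, adjusted p 2.11e-15). The carbonic anhydrases Car4 and Car1, which supply bicarbonate for that exchange, rose by 1.62 (adjusted p 4.1e-07) and 1.44 (adjusted p 1.82e-06). Car1 had 64236 to 120210 counts in COLONIZED and 206970 to 289220 in CONV. Fabp2, which binds fatty acids in enterocytes, and Mxd1, which opposes MYC in cells leaving the cycle, rose by 1.74 and 2.22. All 8 passed in every fit without 1 library, and when the library total was added as a covariate.

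**Figure D2:**
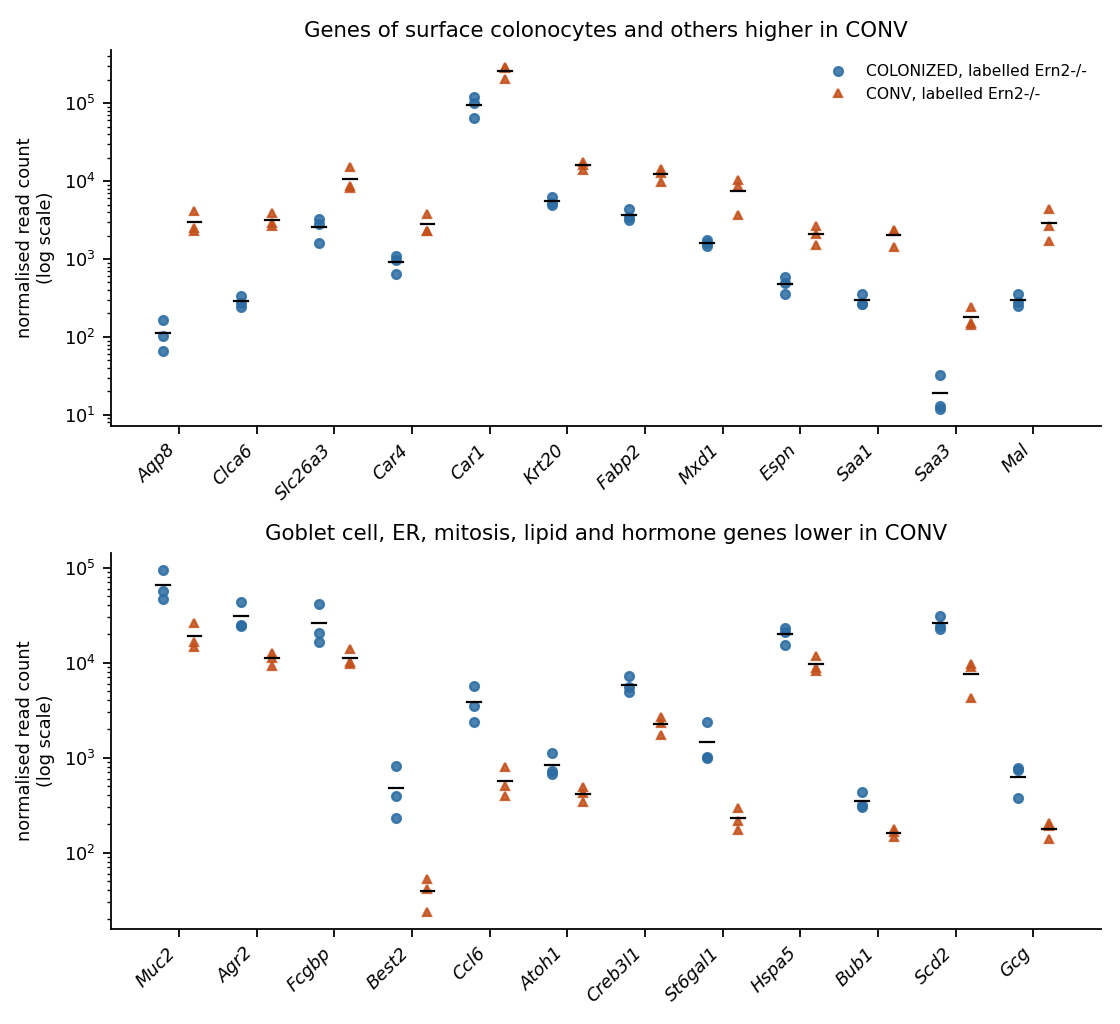
Normalised counts (log axis) of 12 genes called higher and 12 called lower in CONV, in COLONIZED (circles) and CONV (triangles) libraries labelled Ern2-/-, with 1 symbol per library and a line at the group mean. Aqp8 lies between 65.9 and 165 in COLONIZED and between 2281 and 4167 in CONV, and Muc2 between 46568 and 94304 in COLONIZED and between 14565 and 26041 in CONV.

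A list of brush border genes, which also held the transcription factor gene Maf and lipid genes such as Apob, was called in both directions. Of its 38 genes tested, 11 rose, Maf among them, and 2 fell (34.2% called against 8.37% of all genes, median 0.74). Without COLONIZED replicate 1, 5 rose. Espn, which bundles the actin of microvilli, rose most (358, 489 and 580 counts in COLONIZED against 1508, 2111 and 2691 in CONV, 2.14, SE 0.27, adjusted p 4.36e-13). Vil1 (villin) and Myo1a rose by 0.64 and 0.86, and the meprin subunit Mep1b by 1.24. Dpp4, an apical peptidase, fell by 1.03, a call lost in 4 of the 6 fits without 1 library (adjusted p up to 0.0475, without COLONIZED replicate 2). Alpi, the intestinal alkaline phosphatase, rose by 1.39 with 1441 counts in CONV replicate 1 against 437 and 624 in the others, and was called in 2 of those 6 fits.

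The wider enterocyte signature of 448 genes had 97 higher and 9 lower calls, 23.7% of its members against 8.37% of all genes. The number of higher calls was 47 without COLONIZED replicate 1. Ion transport genes were divided. Of 28, 3 rose and 6 fell (32.1% called against 8.37% of all genes). The number that fell was 2 without COLONIZED replicate 1 or CONV replicate 3. With the library total as a covariate 3 were higher and 0 lower. edgeR called 0 in either direction, and the fit of 18 libraries 1 in each. Trpm6, a channel for magnesium uptake, rose from 542, 495 and 897 to 3567, 1594 and 1688 counts (1.83, SE 0.34, adjusted p 7.88e-06). The secretory potassium channel Kcnma1 fell from 278, 156 and 172 to 70.3, 54.1 and 41.4 counts (-1.84, SE 0.33, adjusted p 3.51e-06), and Hsd11b2, which keeps glucocorticoids from the mineralocorticoid receptor, fell by 1.11 (adjusted p 3.49e-05). Slc12a2, the basolateral carrier that loads crypt cells with chloride, fell by 1.08 and was called in 1 of the 6 fits without 1 library (adjusted p up to 0.123, without COLONIZED replicate 2).

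Of 3 serum amyloid A genes, known from the acute-phase response, Saa1 and Saa3 rose, and Saa2, with 2.12 to 2.82 counts in COLONIZED and 2.18 to 18.2 in CONV, was not called (2.42, adjusted p 0.0461). Saa1 (chr7:46740497-46742980, minus strand) had 269, 355 and 267 counts in COLONIZED and 2310, 2324 and 1426 in CONV (2.77, SE 0.24, adjusted p 2.73e-26, edgeR 0.00266). Saa3 rose from 13.0, 12.0 and 32.3 to 149, 143 and 244 counts (3.24, SE 0.41, adjusted p 1.85e-12). Serum amyloid genes resemble each other, and how reads with several matches were counted is not given in the sources used here. Of 25 acute-phase and oxidative defence genes 3 rose and 0 fell (12.0% called against 8.37% of all genes, with 7 and 0 at an unadjusted p below 0.05), the third being Nfkbia, an inhibitor of NF-κB (0.88, adjusted p 0.00251), which was called in 1 of the 6 fits without 1 library (adjusted p up to 0.0416, without COLONIZED replicate 2). Nos2 (37.7, 7.77 and 5.51 against 23.1, 38.4 and 26.2 counts, adjusted p 0.499) and Duox2 (1388, 599 and 444 against 752, 437 and 406, adjusted p 0.311), which make nitric oxide and hydrogen peroxide, overlapped between the groups.

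Other genes that rose most, among those called in each fit without 1 library, had varied roles. Mal, a proteolipid of apical transport vesicles, had 251, 282 and 361 counts in COLONIZED and 4436, 1722 and 2637 in CONV (3.30, adjusted p 2.07e-21). Cpn1, which cleaves C-terminal basic residues from peptides, rose by 3.26, and the cytoskeletal genes Rhoc and Tpm2 rose by 2.63 and 2.92. Prdm1, which encodes the repressor BLIMP1, rose from 7.77 to 15.7 counts in COLONIZED to 60.4 to 113 in CONV (2.87, adjusted p 1.69e-09). The unannotated transcript E130012A19Rik, the ubiquitin ligase gene Rnf152 and Ttc39c completed the group, at 3.30, 2.83 and 2.80.

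Calls among goblet cell genes were mostly lower. Of 400 genes of the goblet signature, 87 fell and 10 rose (24.2% called against 8.37% of all genes), and the median was -0.42. The number that fell was 24 without COLONIZED replicate 1, 56 without COLONIZED replicate 2 and 33 without CONV replicate 3, and 121 without CONV replicate 1. With the library total as a covariate 7 fell, and edgeR called 0 lower. The members of the signature had a summed level of 94500, 73000 and 70700 CPM in COLONIZED replicates 1, 2 and 3 and 51400, 52200 and 46000 CPM in CONV.

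Muc2, the gel-forming mucin of the colon (chr7:141690340-141754693, plus strand), had 94304, 57377 and 46568 normalised counts in COLONIZED and 26041, 16543 and 14565 in CONV. Every CONV library was below every COLONIZED library, and the level was 3.47-fold lower (-1.79, SE 0.31, adjusted p 4.8e-07, edgeR 0.0228). Agr2, the disulfide isomerase needed for MUC2 folding, fell from 43489, 24266 and 24982 to 12707, 11215 and 9302 counts (-1.48, SE 0.26, adjusted p 1.29e-06). Both were called in each fit without 1 library. Best2, an anion channel of colon goblet cells, fell 12.6-fold (818, 232 and 398 against 24.0, 52.4 and 41.4 counts, -3.65, SE 0.45, adjusted p 4.2e-13), and the chemokine gene Ccl6 fell 6.84-fold (-2.77, adjusted p 4.36e-13). COLONIZED replicate 1 was the highest library for each of these 4 genes.

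Of 21 mucus and goblet products tested, Muc2, Agr2, Best2 and Ccl6 included, 9 fell, 2 rose and 10 were not called. Called were 52.4%, against 8.37% of all genes. Fcgbp, which encodes a mucus protein bound to MUC2, fell by 1.21 (41669, 16309 and 20257 against 9773, 13884 and 10129 counts, adjusted p 0.0038), and Zg16, a lectin that binds Gram-positive bacteria, fell by 1.62 (adjusted p 0.000576). Each was called in 3 of 6 fits without 1 library, with adjusted p up to 0.146 for Fcgbp (without CONV replicate 1) and 0.101 for Zg16 (without CONV replicate 2). Clca3, which encodes a protein secreted into mucus, had 23758, 10508 and 16771 counts in COLONIZED and 3226, 11549 and 3141 in CONV, where replicate 2 lay inside the COLONIZED range (-1.51, SE 0.75, adjusted p 0.154). Tff3 (3994, 1813 and 2821 against 1471, 2867 and 2800) and Spink4 (7086, 2435 and 5730 against 4311, 5266 and 6617) were not called, with values of -0.27 (adjusted p 0.617) and 0.09 (adjusted p 0.9). Ang4, an antimicrobial ribonuclease, rose from 197, 163 and 254 to 742, 3005 and 571 counts (2.81, SE 0.76, adjusted p 0.00337), a call lost in 3 of 6 fits (adjusted p up to 0.05, without COLONIZED replicate 2). Guca2a, which encodes guanylin and is also made by surface colonocytes, rose from 7805, 10306 and 9620 to 20717, 17451 and 20718 counts (1.09, SE 0.18, adjusted p 1.22e-07).

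Of 28 genes of mucin glycosylation 8 fell, 1 rose and 19 were not called (32.1% called against 8.37% of all genes, median -0.73). edgeR called 0 lower and 1 higher. With the library total as a covariate 1 was lower and 2 higher, and in the fit of 18 libraries 3 were lower and 0 higher. The lower calls numbered 3 without COLONIZED replicate 1, 5 without COLONIZED replicate 2 and 4 without CONV replicate 3. St6gal1, a sialyltransferase, fell from 2372, 1027 and 995 to 217, 297 and 172 counts (-2.68, SE 0.35, adjusted p 1.57e-11). The fucosyltransferase Fut4 fell by 1.83, the sulfotransferase Chst4 fell by 1.39 and the initiating enzyme Galnt5 fell by 1.45. St3gal1, a sialyltransferase that caps core O-glycans, moved the other way, from 151, 172 and 223 to 513, 630 and 585 counts (1.66, SE 0.22, adjusted p 8.96e-12).

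A list of 16 genes of secretory fate held transcription factors and the Notch ligands Dll1 and Dll4. Among them 4 fell and 0 rose, with 8 lower and 2 higher at an unadjusted p below 0.05 and 0 called by edgeR. Creb3l1, an ER-bound factor released by proteolysis, fell from 7182, 5470 and 4908 to 2322, 2659 and 1723 counts (-1.39, SE 0.23, adjusted p 1.86e-07) and was called in every fit without 1 library. Atoh1, which commits crypt cells to the secretory fate, had 1117, 721 and 678 counts in COLONIZED and 340, 485 and 425 in CONV (-1.01, SE 0.26, adjusted p 0.00166), but an adjusted p of 0.0346 without COLONIZED replicate 1. Without that library Gfi1 (-1.28) and Creb3l4 (-1.25) also lost their calls, at 0.0446 and 0.0447. Other libraries mattered too, as Atoh1, Gfi1 and Creb3l4 were called in 4, 2 and 3 of the 6 fits without 1 library. The lower calls of the list numbered 1 without COLONIZED replicate 1 or CONV replicate 3, and 2 without CONV replicate 2. Spdef and Klf4, which act in goblet cell maturation, were not called and had opposite signs (-0.72, adjusted p 0.0186, and 0.73, adjusted p 0.0482).

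The genes that fell most, among those called in each fit without 1 library, were led by Casp14. This caspase, known from cornifying epidermis, had 403, 131 and 248 counts in COLONIZED and 0.827, 14.0 and 4.36 in CONV (-5.42, SE 1.02, adjusted p 7.26e-06). Nov (CCN3, a secreted matrix-associated protein) fell from 3973, 2275 and 1847 to 234, 423 and 113 counts (-3.39, SE 0.41, adjusted p 8.47e-14). Gatm, which makes the creatine precursor, fell by 3.39, and Lrrk2, a kinase of vesicle traffic, fell by 2.64. Atp2c2, which pumps calcium and manganese into the secretory pathway, fell by 2.58, the nucleoside carrier Slc28a3 fell by 2.46 and Klhdc7a fell by 2.18. Art2a-ps fell by 2.22, and reads may be divided between it and a close relative.

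**Figure D3:**
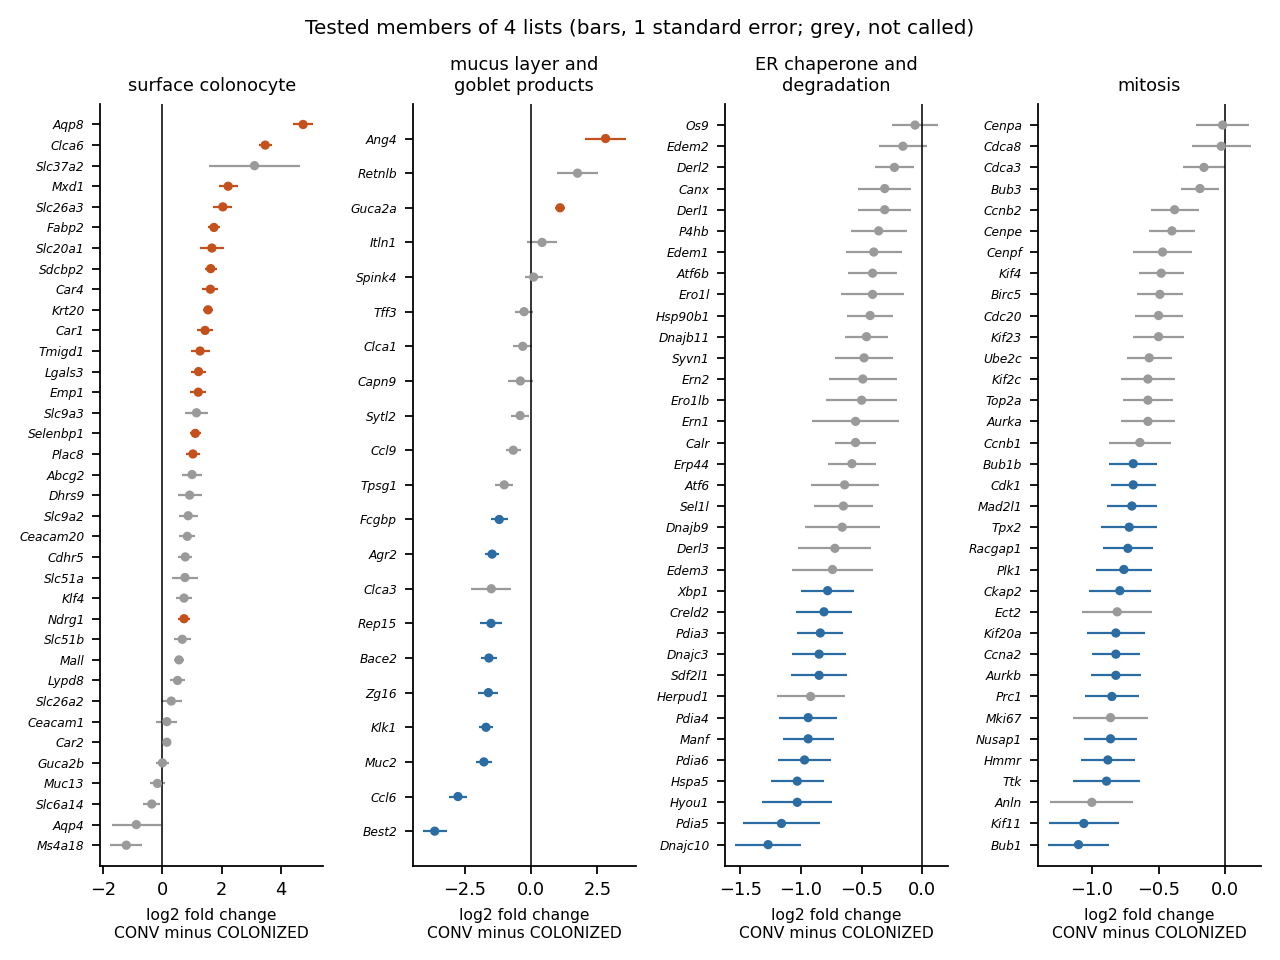
Log2 fold change, CONV minus COLONIZED, of tested members of 4 gene lists, with 1 point per gene, bars of 1 standard error and grey for genes not called by DESeq2. Surface colonocyte genes lie mostly above 0, with a median of 0.92 over the whole list, and all 35 members of the ER chaperone list and all 35 of the mitosis list lie below 0.

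Of 35 genes for ER chaperones and ER-associated degradation, 12 fell, 0 rose and 23 were not called in CONV-Ern2-/-. Called were 34.3%, against 8.37% of all genes. The fitted value was negative in all 35, Ern1 and Ern2 included (median -0.64), while 49.6% of all genes tested had a value above 0. edgeR called 0 of them, and at an unadjusted p below 0.05 DESeq2 had 24 lower and 0 higher. The summed level was 14600, 14000 and 11300 CPM in COLONIZED and 8790, 6900 and 7170 in CONV. The number that fell was 0 without COLONIZED replicate 1, 5 without COLONIZED replicate 2, 24, 5 and 4 without CONV replicates 1, 2 and 3, and 0 when the library total was the covariate. Hspa5, the main ER chaperone BiP (chr2:34771970-34777547, plus strand), fell from 23062, 20823 and 15405 to 11870, 8252 and 8868 counts (-1.03, SE 0.22, adjusted p 0.000152). Its adjusted p was 0.011 without COLONIZED replicate 1. Dnajc10, a reductase that acts with BiP, fell by 1.27, and Hyou1, its exchange factor, fell by 1.03 (called in 5 and 2 of the 6 fits). Xbp1, whose mRNA ERN1 and ERN2 splice, fell from 3643, 2756 and 2541 to 2111, 1477 and 1605 counts (-0.78, SE 0.22, adjusted p 0.00556) and was called in 1 of the 6 fits, with an adjusted p of 0.0879 without COLONIZED replicate 1. Counts per gene do not separate the spliced from the unspliced form.

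Promoters of this list were read because all its calls were lower. The ER stress response element, searched on both strands as CCAAT, 9 bases of any kind and CCACG in the 250 bases before the start of the gene in RefSeq's table, was found in 9 of 28 tested members with a promoter (32.1%), in 0.159% of 10037 genes tested and in 0.113% of 32851 promoters in RefSeq's table for GRCm38.p6. It was found in 4 of 10 called members, which are shown here 5′ to 3′ on the plus strand with the match in capitals. The windows are chr2:34772019-34772048 for Hspa5, chr12:17266460-17266539 for Pdia6, chr14:118937786-118937885 for Dnajc3 and chr15:88819479-88819578 for Creld2, where the match is on the opposite strand. Their log2 fold changes were -1.03, -0.97, -0.85 and -0.81. The Hspa5 window overlaps an annotated exon and lies inside the gene position given above, which begins further upstream. A match describes the letters only.
Hspa5: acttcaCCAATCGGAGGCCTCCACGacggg
Pdia6: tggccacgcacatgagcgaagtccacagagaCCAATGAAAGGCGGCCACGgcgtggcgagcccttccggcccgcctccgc
Dnajc3: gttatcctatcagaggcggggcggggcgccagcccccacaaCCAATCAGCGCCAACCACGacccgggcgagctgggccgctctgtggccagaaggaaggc
Creld2: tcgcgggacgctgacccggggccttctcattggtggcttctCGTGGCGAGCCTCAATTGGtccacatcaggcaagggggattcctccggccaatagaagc

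Genes of the ATF4 and CHOP response were called in both directions, 2 of 36 higher and 2 lower (11.1% called against 8.37% of all genes, with 5 and 12 at an unadjusted p below 0.05). The counts ran from 0 to 5 and from 1 to 6 in the fits without 1 library, both highest without CONV replicate 1. Chac1, which degrades glutathione, fell from 318, 161 and 150 to 38.0, 75.1 and 30.5 counts (-2.14, SE 0.41, adjusted p 1.2e-05) and was called in each fit without 1 library. Atf3 rose by 1.41 and Sesn2 by 0.97, each called in 2 of those fits. Ddit3 (CHOP), Trib3, Asns and Derl3, which stress of the ER is known to induce, were not called, at 0.58 (adjusted p 0.242), -1.30 (0.0831), -0.60 (0.126) and -0.72 (0.0814).

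Cell cycle genes were called in 1 direction. Of 35 replication genes 11 fell and of 35 mitosis genes 16 fell, with 0 higher in either list and medians of -0.69. Called were 31.4% and 45.7%, against 8.37% of all genes. At an unadjusted p below 0.05, 28 and 31 were lower and 0 higher, and edgeR called 0 in each. Summed levels were 1660 to 1800 CPM in COLONIZED and 827 to 1100 in CONV for replication, and 2720 to 3150 and 1450 to 1840 for mitosis, with no overlap. The replication count was 0 without COLONIZED replicate 3, 1 to 3 without COLONIZED replicate 1 or 2 or CONV replicate 2 or 3, and 21 without CONV replicate 1. The mitosis count was 3, 4 and 6 without COLONIZED replicates 1, 2 and 3, 22 without CONV replicate 1, and 8 and 5 without CONV replicates 2 and 3. COLONIZED replicate 3 was the library without Y-linked counts, and with sex as a covariate the counts were 0 and 6. Both were 0 when the library total was the covariate.

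Bub1, a spindle checkpoint kinase, fell from 302, 430 and 317 to 175, 164 and 146 counts (-1.10, SE 0.23, adjusted p 9.59e-05) and was called in each fit without 1 library, as were Hmmr and the cyclin gene Ccna2 (-0.88 and -0.82). Cdc6, which loads the replicative helicase, fell from 196, 218 and 229 to 122, 94.3 and 74.2 counts (-1.12, SE 0.26, adjusted p 0.000393). Mki67 had 6184, 7040 and 5488 counts in COLONIZED and 5116, 2514 and 2674 in CONV and was not called (-0.86, SE 0.28, adjusted p 0.0207). Lgr5, the marker of crypt base stem cells, had 124, 194 and 203 against 218, 112 and 168 counts (-0.05, SE 0.31, adjusted p 0.931). Among 34 Wnt and stem cell genes 4 fell (11.8% called against 8.37% of all genes, 0 without COLONIZED replicate 1 or 2, 11 without CONV replicate 1), among them Kit (-1.22) and the cyclin genes Ccnd1 and Ccnd2 (-0.66 and -0.67).

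Another motif was searched in the replication list. The E2F site, spelled as TTTGGCGC or TTTCCCGC on both strands, was present in 6 of 29 tested members (20.7%), in 2.8% of genes tested and in 1.3% of all promoters. It was present in 4 of 10 called members, Mcm5 and Mcm6 of the helicase, Cdc6 and the chromatin remodeler gene Hells, with log2 fold changes of -0.79, -0.90, -1.12 and -0.96. Of the 31 mitosis genes with a promoter 0 held these letters. The windows, with matches in capitals, are chr8:75109314-75109413 for Mcm5 and chr11:98907987-98908046 for Cdc6, both on the plus strand with the match on the other strand, chr1:128359731-128359830 for Mcm6 on the minus strand and chr19:38930917-38930946 for Hells on the plus strand. The Hells window overlaps an annotated exon. The 4 windows are those of the called members, and that of Mcm6 held 2 matches.
Mcm5: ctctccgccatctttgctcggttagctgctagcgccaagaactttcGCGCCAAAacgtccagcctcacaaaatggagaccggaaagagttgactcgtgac
Mcm6: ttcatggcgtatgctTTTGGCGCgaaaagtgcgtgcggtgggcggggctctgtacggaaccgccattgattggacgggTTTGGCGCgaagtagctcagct
Cdc6: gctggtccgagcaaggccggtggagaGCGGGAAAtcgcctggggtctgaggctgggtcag
Hells: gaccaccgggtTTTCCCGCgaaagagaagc

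The sterol element, searched as TCACNCCAC (1.05% of all promoters), was found in 0 of 16 cholesterol genes, and an HNF4 site, searched as CAAAGTCCA (0.384%), in 1 of 29 surface colonocyte genes. That gene was Muc13, which was not called. These letters being absent from a window says nothing of the factors.

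Calls among lipid genes differed in direction between pathways. Of 24 cholesterol synthesis genes 6 fell and 0 rose (8 and 0 at an unadjusted p below 0.05, median -0.41). Of 22 fatty acid synthesis genes 5 fell and 0 rose (9 and 1 at that p). Of 41 fatty acid oxidation genes 10 rose and 0 fell (21 and 0 at that p, median 0.37). Without COLONIZED replicate 1 the calls in these directions were 0, 4 and 4, and without CONV replicate 1 they were 11, 11 and 8, with 1 fatty acid oxidation gene lower. With the library total as a covariate, as with edgeR, 0, 0 and 1 were called. Scd2, a fatty acid desaturase, fell from 30957, 24337 and 22718 to 9683, 9045 and 4258 counts (-1.76, SE 0.30, adjusted p 3.78e-07). Fads2 and Acly, which desaturate fatty acids and supply acetyl-CoA, fell (-1.41 and -1.12) and, like Scd2, were called in each fit without 1 library. The 6 cholesterol genes, among them Sqle (-0.96), were called in 1 to 4 of those fits. Slc25a20, the mitochondrial carnitine carrier, rose by 1.08 and was called in all 6 of them, and the peroxisomal thiolase gene Acaa1b rose from 69.8, 196 and 256 to 717, 437 and 574 counts (1.73, SE 0.40, adjusted p 0.00044).

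**Figure D4:**
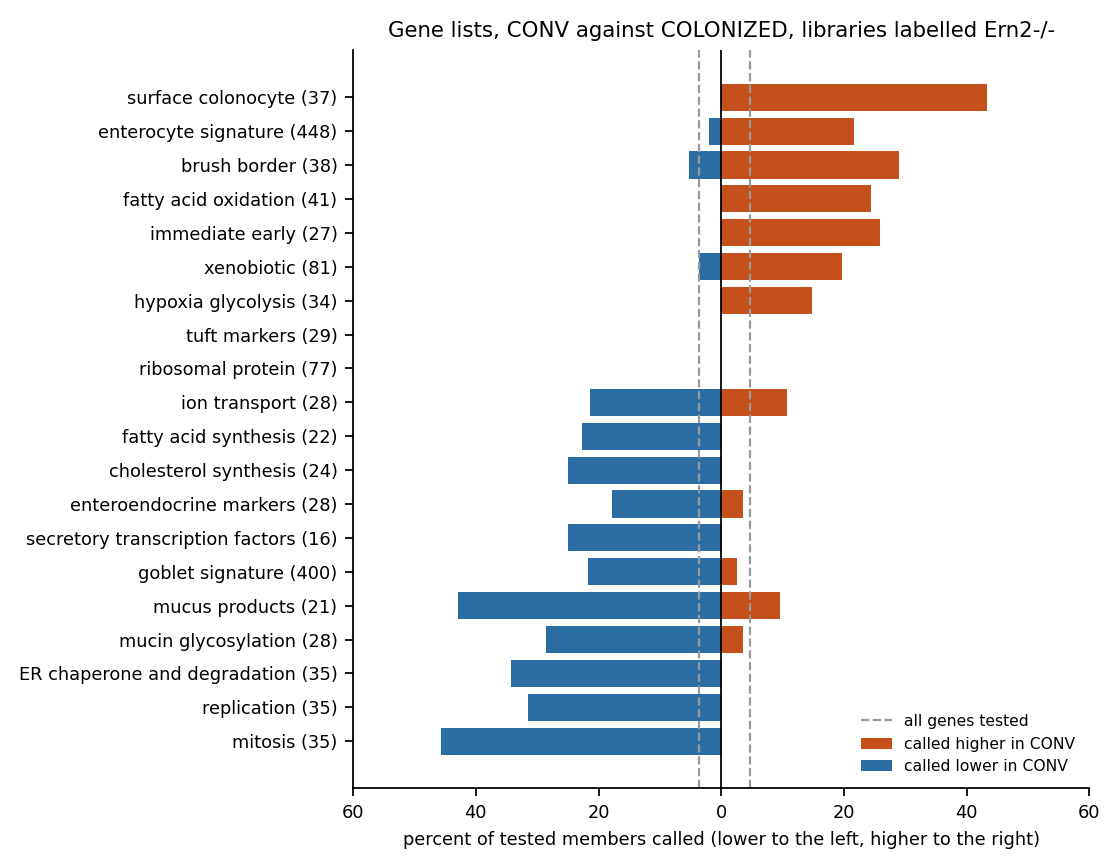
Percentage of the tested members of each gene list (number tested in parentheses) that DESeq2 called higher (right) or lower (left) in CONV against COLONIZED libraries labelled Ern2-/-, with dashed lines at 4.75% and 3.62%, the percentages over all genes tested. The surface colonocyte, brush border and fatty acid oxidation lists have mostly higher calls, and the mucus, glycosylation, ER, replication, mitosis and cholesterol lists have mostly lower ones.

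Of 28 hormone and other core genes of enteroendocrine cells 5 fell and 1 rose (21.4% called against 8.37% of all genes, median -0.93). At an unadjusted p below 0.05, 14 were lower and 1 higher. With the library total 1 fell, and edgeR called 0. In the wider enteroendocrine signature 8 of 133 genes fell and 4 rose (9.02% called against 8.37% of all genes). Gcg, which encodes proglucagon and GLP-1, fell from 734, 785 and 375 to 188, 203 and 137 counts (-1.84, SE 0.31, adjusted p 3.01e-07). Sst (somatostatin) fell by 2.44, Tac1 (substance P) fell by 2.65 and Pyy (peptide YY) fell by 1.41, each called in every fit without 1 library. Insl5 had 547, 114 and 165 counts in COLONIZED and 16.5, 50.6 and 6.54 in CONV (-3.49, SE 0.99, adjusted p 0.00646) and was called in 2 of those fits. Sct (secretin) rose by 1.11, and the higher calls of the core list numbered 0 without COLONIZED replicate 1 or 2 or CONV replicate 3. Of 29 core tuft cell genes 0 were called by DESeq2 or edgeR, with 6 higher and 2 lower at an unadjusted p below 0.05 in DESeq2. The wider tuft signature of 479 genes had 41 higher and 12 lower calls (11.1% called against 8.37% of all genes). Of it edgeR called Rhoc, Trim40 and Espn, all higher.

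Of 21 genes of microbial defence 2 rose and 2 fell (19.0% called against 8.37% of all genes). The numbers ran from 1 to 2 and from 1 to 5 in the fits without 1 library, and edgeR called 0. Beside Ang4 and Zg16, described above, Sprr1a, which encodes a small proline-rich protein, rose from 42.8, 42.4 and 44.9 to 108, 229 and 238 counts (2.13, SE 0.34, adjusted p 6.99e-08) and was called in each of those fits. The phospholipase gene Pla2g5 fell from 604, 236 and 287 to 43.8, 129 and 41.4 counts (-2.40, SE 0.46, adjusted p 1.53e-05), a call lost without CONV replicate 1 (adjusted p 0.025). The lectin Reg3b had 25696, 14451 and 4963 counts in COLONIZED and 5495, 1378 and 2814 in CONV, with COLONIZED replicate 3 inside the CONV range (-2.22, SE 0.79, adjusted p 0.0348). Reg3g (-1.65, adjusted p 0.11), Retnlb (1.75, adjusted p 0.11) and the pentraxin gene Mptx1 (-2.47, adjusted p 0.128) were not called. Of 54 interferon-stimulated genes 4 rose and 1 fell (9.26% called against 8.37% of all genes). These counts ran from 2 to 8 and from 0 to 4 in the fits without 1 library, the highest without CONV replicate 1 and without COLONIZED replicate 3. Oas3, which senses double-stranded RNA, rose from 38.9, 41.7 and 30.7 to 184, 161 and 144 counts (2.14, SE 0.27, adjusted p 1.26e-12, edgeR 0.00515). Irf7 rose from 677, 745 and 1587 to 2192, 5020 and 4644 counts (1.98, SE 0.37, adjusted p 8.56e-06).

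Tight junction genes were called in both directions, 3 of 26 each way (23.1% called against 8.37% of all genes). The higher calls numbered 0 without COLONIZED replicate 3 and 6 without CONV replicate 1, the lower calls 0 without COLONIZED replicate 2, and both 0 with the library total. The pore-forming Cldn2, found low in the crypt, fell from 5598, 8212 and 6454 to 4148, 1175 and 1686 counts (-1.53, SE 0.39, adjusted p 0.0018) but was called in 2 of 6 fits. Cldn8 fell by 1.76, whereas Cldn4 and Cldn3 rose by 1.04 and 0.69. Immediate early genes were 7 of 27 higher and 0 lower (14 and 2 at an unadjusted p below 0.05), and 3 of 17 mesenchymal genes (Mylk, Col3a1 and Myh11) were higher too (12 and 0 at that p). Called were 25.9% and 17.6%, against 8.37% of all genes. The mesenchymal median was 2.45, and 2.47 between CONV and COLONIZED in WT. Without CONV replicate 1 these counts were 12 and 8, and in the other fits without 1 library they were 2 to 3 and 0 to 1. Col3a1 was at 0 to 6.30 counts in COLONIZED and 6.61 to 39.3 in CONV. The part that tissue carried over in the isolation had in any of these results was not tested.

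To ask whether the difference between CONV and COLONIZED mice depended on genotype label, the same contrast was fitted in WT mice. The 2 differences were then tested against each other in 12 libraries. CONV-WT replicate 3 stood apart from its group. It had 8198204 counts in all, and its mean rank correlation over 12441 genes was 0.927 with the other CONV-WT libraries and 0.954 with CONV-Ern2-/-. In WT, DESeq2 called 16 of 13708 genes (0.117%), 6 higher (0.0438%) and 10 lower (0.073%). edgeR gave 0 there, although 899 genes had an unadjusted p below 0.05. Leaving out CONV-WT replicate 3 raised the WT count to 198, and leaving out COLONIZED-WT replicate 2 lowered it to 1. The interaction was called for 37 of 12550 genes (0.295%), 17 positive (0.135%) and 20 negative (0.159%). edgeR gave 0, although 1655 genes had an unadjusted p below 0.05. The interaction count was 1208 without CONV-WT replicate 3, 159 without CONV-Ern2-/- replicate 2 and 0 without COLONIZED-WT replicate 3 or without COLONIZED-Ern2-/- replicate 1. No interaction was called in all 12 fits without 1 library, and the genes named next were chosen after their values were seen.

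Car4 and Saa1 were among the 37. Car4 rose by 1.62 in libraries labelled Ern2-/- and had a value of -0.59 (adjusted p 0.704) in WT, an interaction of 2.20 (adjusted p 0.00531). Saa1 rose by 2.77 against 0.09 (adjusted p 0.98) in WT, an interaction of 2.68 (adjusted p 0.0046). Guca2a and Cldn3 had interactions of 1.35 and 0.92, and Gfi1 and the short-chain fatty acid receptor Ffar2 of -2.02 and -1.63. The interaction was not called for the following genes described above. Aqp8 had a value of -0.18 in WT and an interaction of 4.93 with an adjusted p of 0.0519, Clca6 0.62 and 2.84 (adjusted p 0.0554), Nov 0.18 and -3.59 (adjusted p 0.0792), and Casp14 -2.70 and -2.69 (adjusted p 0.465). The WT value and the interaction were -0.01 and -1.79 (adjusted p 0.241) for Muc2, -0.11 and -0.93 (adjusted p 0.542) for Hspa5, and 0.04 and -1.16 (adjusted p 0.122) for Bub1. These WT values include CONV-WT replicate 3. Scaled over all 18 libraries, CONV-WT replicates 1, 2 and 3 were at 20954, 15930 and 3384 for Hspa5. They were at 4980, 4169 and 345 for Nov, and at 369, 322 and 155 for Bub1.

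Levels in all 6 groups were then placed on the scale of 1 fit of the 18 libraries, with GF mice as the state without microbes. These levels are given as description, since the comparisons share libraries. Aqp8 had means of 2785, 697 and 608 normalised counts in GF-WT, COLONIZED-WT and CONV-WT, and of 3332, 142 and 3787 in GF-, COLONIZED- and CONV-Ern2-/-. Slc26a3 had 10312, 3335 and 2791 in WT and 11970, 3261 and 13377 under the Ern2-/- label. In both genes the 3 COLONIZED-Ern2-/- libraries lay below every GF-Ern2-/- library. The CONV-Ern2-/- libraries (2886 to 5263 for Aqp8 and 10327 to 19012 for Slc26a3) lay below GF-Ern2-/- replicate 2 (5300.5 and 20296) and above replicates 1 and 3 (2462 and 2234, and 7779 and 7836). Muc2 had 50469, 147220 and 147620 in WT, where CONV-WT replicate 3 was at 25213 and the other CONV-WT libraries at 223340 and 194320, and 24882, 83896 and 24123 under the Ern2-/- label. Agr2 had 14558, 42077 and 36611 in WT, where CONV-WT replicate 3 was at 7054 and the others at 50576 and 52204, and 13453, 39247 and 14030 under the Ern2-/- label. For Muc2 and Agr2 the COLONIZED-Ern2-/- libraries lay above every GF-Ern2-/- library. For Agr2 the CONV-Ern2-/- libraries (16051, 14271 and 11768) overlapped those of GF-Ern2-/- (16866, 13352 and 10142). For Muc2 they lay within the GF-Ern2-/- range only with GF-Ern2-/- replicate 2 (9756, against 39100 and 25790), without which CONV replicates 2 and 3 (21049 and 18426) lay below it. Saa1 had means of 15065, 533 and 569 in WT and 8177, 378 and 2560 under the Ern2-/- label, and Krt20 of 9055, 4358 and 7111 and of 9029, 6960 and 20140. Replicate 3 was also the highest CONV-WT library for Aqp8 (132, 301 and 1391.5) and Krt20 (3053.5, 3875 and 14405). CONV-Ern2-/- lay between the other states for Saa1 and above every other group mean for Krt20.

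**Figure D5:**
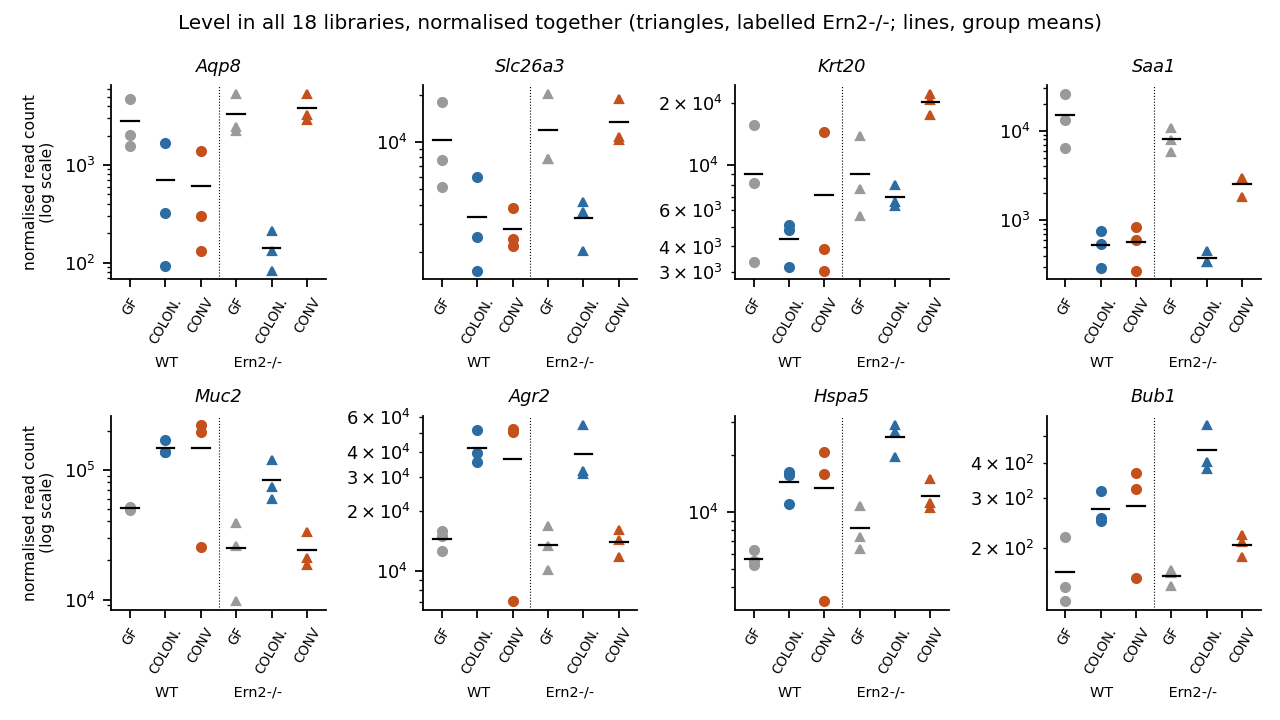
Normalised counts of 8 genes on a log axis in GF, COLONIZED and CONV libraries of both genotype labels, scaled over all 18 libraries, with circles for WT, triangles for libraries labelled Ern2-/- and a line at each group mean. For Aqp8 the means under the Ern2-/- label are 3332, 142 and 3787, and for Muc2 24882, 83896 and 24123.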

How the data were processed

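The deposited table held raw gene counts that the authors made from 75-cycle single-end reads of a stranded mRNA kit with the VIPER pipeline. The submitters' processing notes name STAR, DESeq2 and mm10. Versions, the annotation, the counter and its strand setting are not given in the sources used here. All 18 columns matched a sample label, and 0 columns of no sample were found. Of its symbols, 27 had been changed to dates and 2 were found on more than 1 line. The authors' own comparisons were not used. The 24047 genes were fitted with DESeq2 1.42.0 in R 4.3.3 (default size factors, filtering and Cook limit, no shrinkage) on the 3 CONV-Ern2-/- and 3 COLONIZED-Ern2-/- libraries, with calls at an adjusted p below 0.01, the threshold of the study's methods. Normalised counts are counts divided by size factors. The interaction used 12 libraries. Alternatives were edgeR 4.0.16, TMM size factors, a mean of at least 10 counts, no independent filtering, the replicate block, sex or library total as a covariate, thinning, all 18 libraries and each library left out. The code was tested on simulated data. The members and lists were chosen with earlier results of these data known. Lists are described by their counts, with no test of the list. Named genes were the 12 higher and 12 lower with the largest change among genes with a mean of at least 50 normalised counts, groups that do not overlap and a call in each of the 6 fits without 1 library, up to 3 called members of each list in each direction, and a set list of genes of ER stress, mucus and surface colonocytes. The rule for interactions (up to 8 each way, called in all 12 fits) gave none. Other genes named were chosen after their values were seen. Some genes that the rule names are not reported here. Promoters came from RefSeq's table (GRCm38.p6, which is mm10), and gene positions from GENCODE. Python 3.11.15, pandas 2.3.3 and matplotlib 3.10.9 were used.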

Additional observations from a re-analysis of the deposited data

Results flagged for a closer look

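The difference between CONV and COLONIZED mice was itself compared between the genotype labels, with an interaction term in 12 libraries (DESeq2, adjusted p below 0.01), and 37 genes were called. edgeR called 0, and the DESeq2 count ran from 0 to 1208 when 1 library was left out. A negative estimate is a lower CONV minus COLONIZED value, on the log2 scale, in libraries labelled Ern2-/- than in WT. Negative estimates were those of Rian (-4.56), 2610018G03Rik (-3.32), Pex5l (-3.08), Rgs17 (-2.08), Gfi1 (-2.02), Cd200r2 (-1.86), Tnfaip8 (-1.65), Pkia (-1.64), Tc2n (-1.63), Ffar2 (-1.63), Tceal8 (-1.52), Zfp948 (-1.47), E330009J07Rik (-1.40), Dapk1 (-1.20), Pbk (-1.19), Wbp5 (-1.17), Fam111a (-1.10), Trim37 (-0.86), Dnajc9 (-0.83) and Kif4 (-0.70). Positive estimates were those of Saa1 (2.68), Car4 (2.20), Rn45s (2.02), Mfsd7a (1.56), Guca2a (1.35), Slc22a18 (1.24), Agpat4 (1.20), Tmem220 (1.20), Fam189a2 (1.19), Cyp4f13 (1.15), Rnf167 (1.11), Phf1 (0.96), Cldn3 (0.92), Myh14 (0.90), Aldh7a1 (0.83), Lrsam1 (0.81) and Trim12a (19.28). Trim12a had 0 counts in all 3 COLONIZED-Ern2-/- libraries and in 2 of the CONV-Ern2-/- libraries, so that its fitted value depends on the fit and bounds nothing. Rn45s, a ribosomal precursor, took a higher share of counts in every CONV-Ern2-/- than in every COLONIZED-Ern2-/- library. The COLONIZED-Ern2-/- shares were the lowest of the series. None of the 37 was called in all 12 fits without 1 library. Slc22a18 was called most often, in 9 of them.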

How the results depend on the processing

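The smallest libraries, both CONV-Ern2-/-, limit what can be seen in genes of low count. Depth followed group only in part, as CONV replicate 1 (15419844 counts) lay within the COLONIZED range (14046576 to 20231830). Thinned to the smallest library, the main comparison gave 867 calls, 833 of them among the 1116, and all 1116 kept their sign. The part of depth beyond the fits given here was not tested. RNA composition and group cannot be told apart with 3 libraries a group. Fits without 1 library called from 417 to 2502 genes between the groups labelled Ern2-/-, from 1 to 198 in WT and from 0 to 1208 in the interaction. In the main comparison, 627 genes were called with sex as a covariate, 261 with the library total, 430 in the fit of all 18 libraries, 35 with edgeR, and 516 with CONV replicate 1 alone against the COLONIZED libraries. At an adjusted p below 0.05 the counts were 2185 with DESeq2 and 1132 with edgeR. That threshold and the fit with CONV replicate 1 alone were chosen after seeing the data. In the latter the spread comes from the COLONIZED libraries, and the lone CONV library is assumed to vary like them. The replicate block gave 939 calls, and 54 in the interaction, against 1116 and 37. Same-numbered libraries did not pair, with correlations of their deviations of -0.08, -0.124 and 0.249, and under the block the positive interactions numbered 30 against 17. The WT comparison gave 0 calls and the interaction 0 with edgeR, and the interaction gave 119 with the library total. The range over fits without 1 library was 24 to 121 for goblet genes lower, 47 to 111 for enterocyte genes higher, 12 to 19 for surface colonocyte genes higher, 0 to 24 for ER chaperone genes lower, 0 to 21 for replication and 3 to 22 for mitosis genes lower. In that order the counts were 0, 2, 5, 0, 0 and 0 with edgeR, 62, 67, 14, 12, 0 and 6 with sex, 7, 49, 14, 0, 0 and 0 with the library total, 28, 16, 4, 0, 12 and 9 in the fit of 18 libraries, and 35, 81, 20, 0, 0 and 0 with CONV replicate 1 alone. TMM size factors, the filter at a mean of 10 counts, no independent filtering and thinning moved none of these by over 1.5 times. Of the 1116 calls, 1114 kept their sign with the library total and 1115 with CONV replicate 1 alone. Among named genes the sign turned for some that were not called. With the library total, Atp12a was -1.80, Ddit3 -0.31, Duox2 0.35, Ern1 0.30, Lgr5 0.13 and Spink4 -0.14. With CONV replicate 1 alone, Atp12a was -3.00, Ddit3 -0.38, Ern1 0.16, Lgr5 0.33 and Spink4 -0.23. Lgr5 was 0.07 with sex. Without 1 library, values ran from -1.37 to 2.09 for Atp12a, from -0.94 to 0.03 for Duox2, from -0.32 to 0.16 for Lgr5, from -0.25 to 0.40 for Spink4 and from -0.53 to 0.04 for Tff3. The cause of these differences was not tested. With edgeR 147 of 184 named genes and with the library total 106 lost their call.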
